A study of Saccharomyces cerevisiae with 12 samples.

Results

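The comparison described here is the loss of HAC1 in budding yeast that carries hsf1, that is, the strain labelled hac1∆(hsf1) set against the strain labelled WT(hsf1). It rests on 6 of the 12 arrays of the series, chosen by their sample titles, with 3 biological replicates of each strain. The other 6 arrays are of the strains labelled hac1∆ and WT, without hsf1, also with 3 replicates each. They are used for the spread and to ask whether the difference between hac1∆ and WT strains changes with hsf1. All 4 strains were early exponential cultures in synthetic medium lacking uracil at 30 °C that had been given 2.5 mM dithiothreitol (DTT) for 2 h, so no comparison with untreated cells can be made. The labels give no strain background, do not say which allele hsf1 is or how it was introduced, and do not say whether a strain was 1 clone.

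DTT reduces the disulfide bonds on which secretory proteins depend, and unfolded proteins then collect in the endoplasmic reticulum (ER). In yeast the membrane kinase and nuclease Ire1 responds by splicing the HAC1 mRNA, whose product is a transcription factor. Hac1 carries out the unfolded protein response and drives genes for ER chaperones, disulfide isomerases, ER-associated degradation, glycosylation and vesicle transport. Hsf1 is the essential heat shock transcription factor, which drives genes for cytosolic chaperones, and some ER genes, KAR2 among them, are known targets of both factors.

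Values are the deposited log2 signals of Affymetrix yeast arrays, and a difference of 1 on this scale is a 2-fold difference in signal. Signals were taken for 5449 genes, 1 probe set per gene. Each change is the mean of hac1∆(hsf1) minus the mean of WT(hsf1) with its standard error (SE, n = 3 each), from 1 limma fit over the 12 arrays. A gene was called where its p-value, adjusted over all genes by the Benjamini-Hochberg method, was below 0.05. The same fit gave the change of hac1∆ minus WT, which shares no array with the first but shares its estimate of the spread, and the interaction, which is the change with hsf1 minus the change without it. The arrays measure RNA levels relative to the total, so a change in the RNA content of a cell would not show, and p-values measure only the spread between these cultures.

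The signal of the deleted gene was lost in hac1∆(hsf1). HAC1 read 5.25, 5.31 and 5.21 in hac1∆(hsf1), against 10.86, 10.82 and 10.71 in WT(hsf1). All 3 hac1∆(hsf1) arrays lay under the background level of 5.49, which was the 95th percentile of probe sets for genes of another yeast on the same array. The difference was -5.54 ± 0.09, a loss of signal of at least 39.6-fold (limma adjusted p = 2.72e-13). The signal does not say how much of the HAC1 RNA was spliced.

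The strains also differed in other signals that bear on their identity. HSF1 read 10.54, 10.81 and 10.66 in hac1∆(hsf1), against 8.63, 8.52 and 8.41 in WT(hsf1), a 4.45-fold difference (2.15 ± 0.30, limma adjusted p = 2.12e-05). The signals of HSF1 in the other strains were 7.75, 7.86 and 7.87 in hac1∆, against 8.08, 9.61 and 8.11 in WT, so hac1∆(hsf1) lay above all other arrays. WT(hsf1) lay within the range of the WT arrays only through the second of them (9.61), and above the other WT arrays. URA3, which encodes the uracil synthesis enzyme that the medium selects for, read 9.54, 9.69 and 9.58 in hac1∆(hsf1), against 10.89, 10.93 and 10.91 in WT(hsf1) (-1.31 ± 0.07), and 3 further control probe sets for URA3 differed by -1.46, -1.57 and -1.51. Of 7 measured auxotrophic marker genes, URA3 included, 3 were higher and 4 lower, and LEU2, a marker of leucine synthesis, changed by 1.16 ± 0.12. Of 47 reporter control probe sets on the array, 2 differed by over 1 log2 unit between the compared strains, both for the same reporter, whose target the files do not name. The first read 11.22, 11.27 and 11.12 in hac1∆(hsf1), against 5.21, 5.18 and 5.23 in WT(hsf1), and the second averaged 7.78 in hac1∆(hsf1), against 5.73 in WT(hsf1). Differences in HAC1, HSF1, URA3 and this reporter therefore coincide in the 2 strains and cannot be told apart.

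One WT array stood apart from its replicates in part of its signals. The first reporter probe set read 11.24, 11.26 and 11.20 in hac1∆, against 5.16, 10.47 and 5.16 in WT, so that the second WT array alone of its strain had a high signal. The second probe set did not show this, with 6.33, 6.48 and 6.35 in hac1∆, against 6.58, 6.56 and 7.16 in WT. HSF1 was highest on that array among the WT arrays, while its HAC1 signal of 10.37 was near those of the other WT arrays (10.80 and 10.57). Over all genes it correlated best with its own strain, at 0.990 and 0.988, against 0.973 to 0.978 with the hac1∆(hsf1) arrays. The other WT arrays correlated at 0.996 with each other and at 0.939 to 0.951 with the hac1∆(hsf1) arrays. The second WT array thus lay closer to hac1∆(hsf1) than its replicates did, and its identity was not tested. It enters no mean of hac1∆(hsf1) or WT(hsf1), but it does enter the spread, the change without hsf1 and the interaction, and these are given with and without it where they bear on a result. Without it, the compared strains differed for 2305 genes called higher and 1974 called lower.

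**Figure D1:**
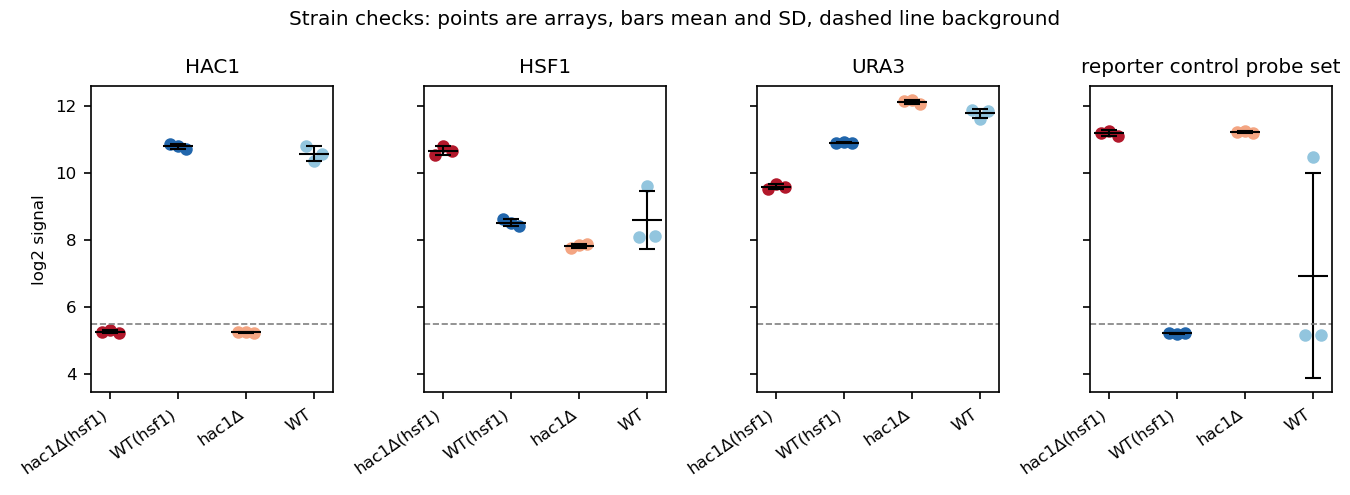
Log2 signal (vertical axis) of HAC1, HSF1, URA3 and a reporter control probe set in the 4 strains. Points are arrays, bars are the mean and SD of 3 arrays, and the dashed line is the background of 5.49; HAC1 is under it on all 3 hac1∆(hsf1) arrays, HSF1 is highest in hac1∆(hsf1), and 1 WT array has a reporter signal of 10.47 while the others of that strain are at 5.16.

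Replicates of a strain were close to each other and the 2 strains were far apart. Correlations over all genes were 0.992 to 0.994 among hac1∆(hsf1) arrays and 0.997 to 0.998 among WT(hsf1) arrays. Between the 2 strains they were 0.848 to 0.872, the lowest range of the 6 pairs of strains; these correlations run across genes, which are not independent replicates. Of the 5449 genes, 4223 (77.5%) were called, 2274 of them higher (41.7%) and 1949 lower (35.8%) in hac1∆(hsf1). Changes of at least 2-fold were called for 351 genes that were higher (6.44%) and 415 that were lower (7.62%), and for 4329 genes (79.4%) no array of one strain overlapped the other. With 77.5% of genes called, a call alone says little about a gene, so sizes are given with each count. Counts for the gene lists below stand beside 41.7% of all genes called higher and 35.8% called lower. The median change over all genes was 0.04. Among the genes lower in hac1∆(hsf1), the means of hac1∆ and WT both lay between those of the compared strains for 1123 of 1949 (57.6%), and among the higher genes for 1155 of 2274 (50.8%).

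In a plot of 39 gene lists, the general stress and sulfur assimilation genes lie at the top and the ribosomal proteins at the bottom, with most lists of the secretory pathway below 0.

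**Figure D2:**
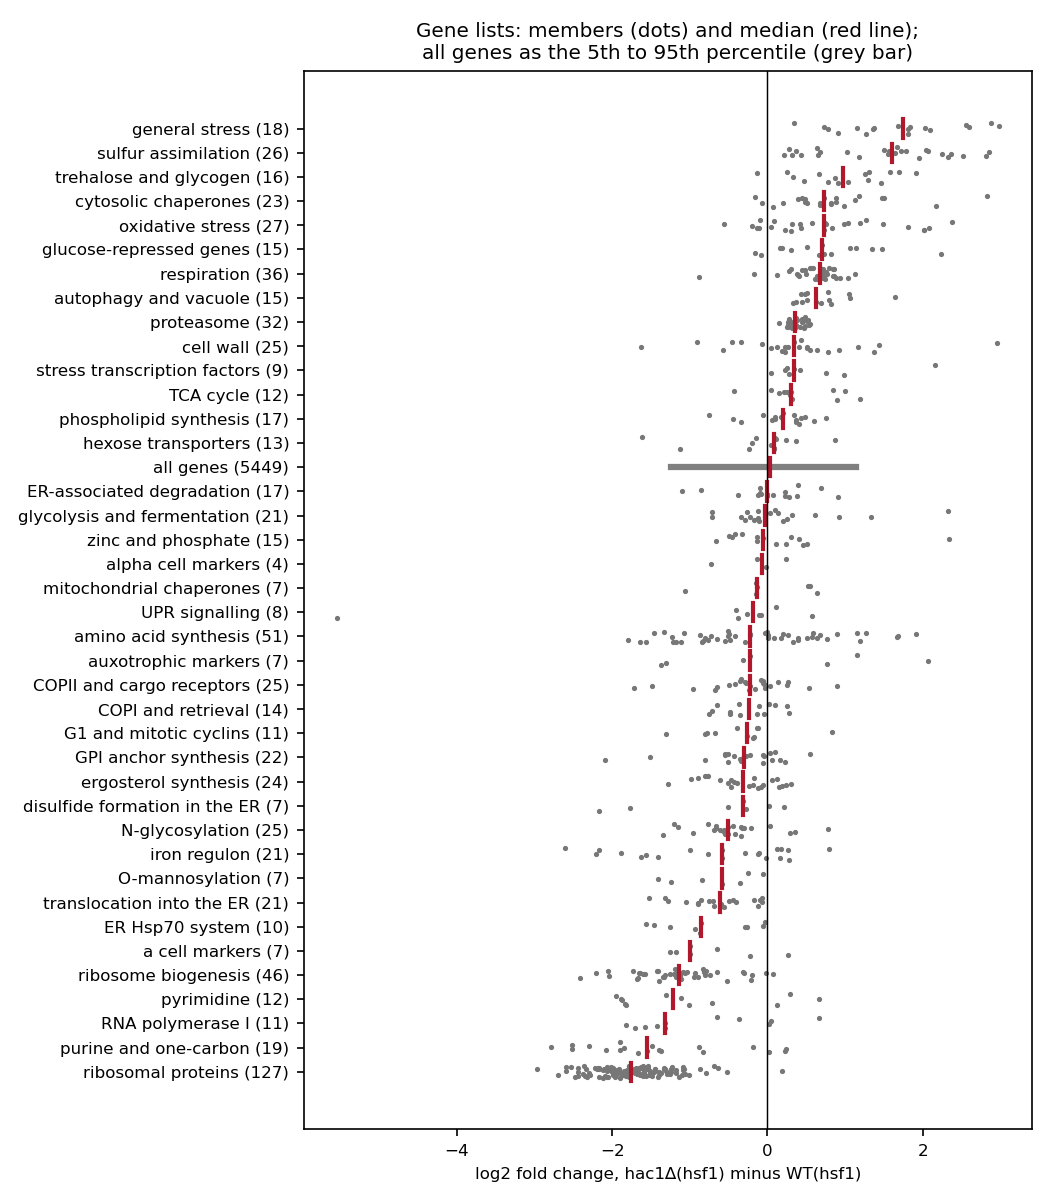
Change in log2 signal, hac1∆(hsf1) minus WT(hsf1) (horizontal axis), of the members (dots) of each gene list, with the number of genes measured in parentheses. Red lines are medians, and the grey bar spans the 5th to 95th percentile of all 5449 genes; medians run from -1.76 for ribosomal proteins to 1.75 for general stress, and the lone dot at the left is HAC1.

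The genes of the signalling branch itself, other than HAC1, changed by less than 1 log2 unit. IRE1, the ER sensor and nuclease, read 7.08, 7.17 and 7.04 in hac1∆(hsf1), against 7.20, 7.20 and 7.23 in WT(hsf1), and its difference of -0.11 ± 0.05 was not called (limma adjusted p = 0.0516), though 6 of 20 alternative settings called it. TRL1, the ligase that joins the HAC1 exons, was lower (-0.41 ± 0.06). PTC2, a phosphatase that acts on Ire1, was higher (0.58 ± 0.06). Of 8 measured genes of this list, 1 rose and 4 fell, with HAC1 among those that fell.

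Chaperones of the ER lumen fell as a group, by unequal amounts. Of 10 measured genes of the ER Hsp70 system, 8 fell, 0 rose, and the median change was -0.86. The mean signal of the list was 8.52, 8.45 and 8.43 in hac1∆(hsf1), against 9.23, 9.21 and 9.24 in WT(hsf1), with no overlap between the strains. SIL1, a nucleotide exchange factor for Kar2, read 7.33, 7.29 and 7.20 in hac1∆(hsf1), against 8.81, 8.81 and 8.90 in WT(hsf1) (-1.56 ± 0.09, 2.96-fold lower, limma adjusted p = 6.89e-09). LHS1, an Hsp70-related exchange factor, fell by a similar amount (-1.46 ± 0.12). The J-domain cochaperone genes SCJ1, JEM1 and ERJ5 changed by -0.87, -0.85 and -1.26, and FPR2, a prolyl isomerase gene, by -0.93.

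KAR2, the ER Hsp70 (BiP) and a long-known target of the response, fell less than SIL1 and LHS1. It read 11.32, 11.49 and 11.25 in hac1∆(hsf1), against 11.60, 11.68 and 11.64 in WT(hsf1), a difference of -0.29 ± 0.06 or 1.22-fold lower in hac1∆(hsf1) (limma adjusted p = 0.000888). In the strains without hsf1, KAR2 read 10.28, 10.29 and 10.38 in hac1∆, against 11.94, 11.83 and 11.96 in WT, a difference of -1.59 ± 0.06. The KAR2 difference between the strains was smaller with hsf1 by 1.31 ± 0.09 on the log2 scale (limma adjusted p = 3.78e-08, and 1.35 without WT replicate 2). The calnexin homologue gene CNE1 changed by -0.26, and CPR5 and ROT1 were not called (-0.06 and -0.03).

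Among the genes for disulfide formation, the isomerase relatives fell most. MPD1 read 6.77, 6.85 and 6.75 in hac1∆(hsf1), against 8.92, 8.90 and 9.07 in WT(hsf1) (-2.17 ± 0.09, 4.51-fold lower, limma adjusted p = 4.5e-10), and EUG1 fell by a similar amount (-1.77 ± 0.10). Both groups of arrays were fully apart for these genes. PDI1, the essential protein disulfide isomerase, read 11.13, 11.21 and 11.02 in hac1∆(hsf1), against 11.40, 11.47 and 11.43 in WT(hsf1), a smaller difference of -0.32 ± 0.06. MPD2 changed by -0.51, EPS1 was not called (0.02), and ERV2, a thiol oxidase gene, was higher (0.22 ± 0.06).

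ERO1, the oxidase that feeds disulfide bonds to Pdi1, showed the widest gap between the backgrounds in this list. It read 10.41, 10.09 and 10.03 in hac1∆(hsf1), against 10.45, 10.46 and 10.44 in WT(hsf1), a difference of -0.27 ± 0.12 that was not called (limma adjusted p = 0.0545). That call turned on the fit, since 8 of 20 alternative settings called it, among them the 6 arrays alone (adjusted p = 0.0211). Without hsf1, ERO1 read 8.97, 8.93 and 8.91 in hac1∆, against 11.16, 10.70 and 11.20 in WT, a difference of -2.08 ± 0.12. The interaction was 1.81 ± 0.17 (limma adjusted p = 8.22e-07; 1.97 without WT replicate 2). The signal of HSF1 was itself highest in hac1∆(hsf1), and its part in the KAR2 and ERO1 values was not tested.

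For some other ER targets the change did not differ detectably between the backgrounds. The interaction of MPD1 was -0.03 (95% confidence interval -0.32 to 0.26), that of EUG1 -0.19 (-0.49 to 0.10), that of PDI1 -0.04 (-0.22 to 0.14) and that of SCJ1 -0.04 (-0.28 to 0.21). LHS1 had an interaction of 0.11 (-0.24 to 0.47), which was not called, but it was 0.30 and called without WT replicate 2 (limma adjusted p = 0.00141). SIL1 lay between these cases, with a change of -2.38 without hsf1 and an interaction of 0.82 (limma adjusted p = 0.000102). In the ER Hsp70 list the interaction was called higher for 4 of 10 genes, JEM1 and CPR5 among them, and lower for 1, CNE1. In the disulfide list it was called higher for 3 of 7, ERO1, MPD2 and ERV2, and lower for 0. Over all genes, 35.7% were called higher and 34.0% lower.

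**Figure D3:**
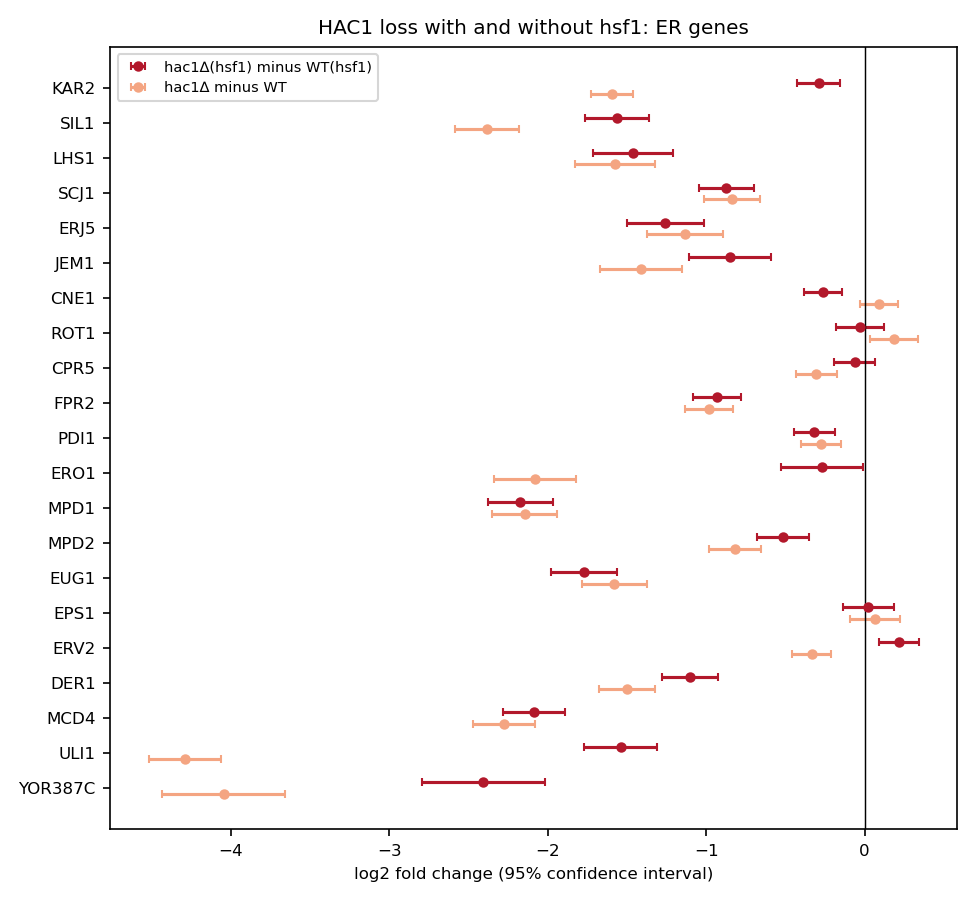
Change in log2 signal with its 95% confidence interval (horizontal axis) for 21 genes of the ER and of unknown function. Dark red is hac1∆(hsf1) minus WT(hsf1) and light red is hac1∆ minus WT; the points part for KAR2, ERO1, ULI1 and YOR387C and lie together for MPD1, EUG1, LHS1, SCJ1 and PDI1.

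Degradation genes were mixed. Of 17 measured genes of ER-associated degradation, 7 rose and 3 fell, against 41.7% and 35.8% of all genes, with a median of -0.01. DER1, a subunit of the retrotranslocation channel, read 7.89, 7.94 and 7.88 in hac1∆(hsf1), against 8.98, 8.97 and 9.07 in WT(hsf1) (-1.10 ± 0.08, limma adjusted p = 5.51e-08), and its homologue DFM1 changed by -0.86 ± 0.07. HRD1 and HRD3, the membrane ubiquitin ligase and its partner, were not called (-0.01 and -0.12). The risen members with the largest changes were NPL4 (0.91 ± 0.07) and UFD1 (0.69 ± 0.07), the cytosolic partners of the Cdc48 segregase.

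Genes for entry into the ER were mostly lower. Of 21 measured translocation genes, 17 fell and 0 rose, with a median of -0.61 against -0.07 without hsf1. The list averaged 8.51, 8.47 and 8.44 in hac1∆(hsf1), against 9.11, 9.12 and 9.12 in WT(hsf1). SEC66 and SEC63, partners of the Sec61 channel for post-translational import, changed most (-1.53 ± 0.08 and -1.32 ± 0.09), and SEC61, the channel itself, read 9.89, 10.02 and 9.87 in hac1∆(hsf1), against 10.61, 10.65 and 10.57 in WT(hsf1) (-0.69 ± 0.06). The interaction was called lower for 14 of the 21 genes and higher for 1, against 34.0% and 35.7% of all genes.

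Genes for glycosylation and anchor synthesis were mostly lower too. Of 25 measured N-glycosylation genes, 21 fell and 3 rose, with a median of -0.51. Without hsf1, 9 of these rose and 8 fell (median 0.03), against 28.4% and 22.3% of all genes. The interaction was called lower for 19 of the 25 and higher for 3, against 34.0% and 35.7% of all genes. ALG3, a mannosyltransferase of the lipid-linked precursor, changed by -1.34 ± 0.05, and SEC59, the dolichol kinase gene, by -1.20 ± 0.07. ALG13 and OST2 went the other way (0.79 ± 0.05 and 0.36 ± 0.08). Of 7 O-mannosyltransferase genes, 6 fell and PMT7 was not called (-0.06), with PMT2 at -1.40 ± 0.09 and PMT4 at -1.25 ± 0.06. Without hsf1, 4 of the 7 fell and 1, PMT4, rose (0.22), with a median of -0.42 and PMT2 at -0.97.

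MCD4 stood out among 22 measured GPI anchor genes, of which 13 fell and 3 rose. This ethanolamine phosphate transferase gene read 7.78, 7.87 and 7.83 in hac1∆(hsf1), against 9.86, 9.96 and 9.92 in WT(hsf1) (-2.09 ± 0.09, 4.25-fold lower, limma adjusted p = 4.36e-10). All hac1∆(hsf1) arrays lay under all WT(hsf1) arrays. Its interaction was 0.18 and not called, but it was 0.31 and called without WT replicate 2 (limma adjusted p = 0.00509). GWT1, which acylates the anchor, changed by -1.51 ± 0.08, and GPI18 was higher (0.55 ± 0.08).

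Vesicle coat genes changed less. Of 25 COPII and cargo receptor genes, 14 fell and 5 rose (median -0.23), led by ERP2 (-1.72 ± 0.10) and ERP1 (-1.48 ± 0.08) of the p24 family. EMP46, a lectin-like cargo receptor gene, was higher (0.90 ± 0.05). Of 14 COPI and retrieval genes, 8 fell and 2 rose (median -0.24), with ERD2, the receptor that returns HDEL proteins to the ER, at -0.75 ± 0.12.

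Lipid genes split by pathway. Of 17 measured phospholipid genes, 11 rose and 3 fell, with a median of 0.19 against -0.23 without hsf1. INO1, which makes inositol phosphate and is known to depend on Hac1 in inositol-starved cells, read 11.75, 11.71 and 11.68 in hac1∆(hsf1), against 11.23, 11.34 and 11.28 in WT(hsf1) and was higher in hac1∆(hsf1) (0.43 ± 0.05, limma adjusted p = 2.66e-06). Without hsf1 the change was -0.31, and the interaction was 0.74 (limma adjusted p = 6.4e-07; 0.74 without WT replicate 2). Of 24 ergosterol genes, 15 fell and 3 rose (median -0.31, against 0.28 without hsf1), led by ERG4 (-1.28 ± 0.07) and ERG5 (-0.99 ± 0.08), which act late in the pathway.

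Cytosolic chaperones were higher in hac1∆(hsf1). Of 23 measured genes, 20 rose and 1, HSC82, fell (-0.16 ± 0.07), with a median of 0.73. The list averaged 10.98, 10.94 and 10.91 in hac1∆(hsf1), against 10.10, 10.12 and 10.13 in WT(hsf1), and 10.34, 10.37 and 10.31 in hac1∆, against 10.59, 10.77 and 10.55 in WT, so hac1∆(hsf1) was the highest and WT(hsf1) the lowest of the 4 strains. The signal of HSF1 was also highest in hac1∆(hsf1), but WT(hsf1) lay above hac1∆ for HSF1 and below hac1∆ for this list. The part of HSF1 in the result was not tested.

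The stress-inducible Hsp70 genes changed most. SSA4 read 11.38, 11.43 and 11.37 in hac1∆(hsf1), against 9.20, 9.21 and 9.29 in WT(hsf1) (2.16 ± 0.10, 4.48-fold higher, limma adjusted p = 1.04e-09), and SSA3 read 10.84, 11.12 and 11.02 in hac1∆(hsf1), against 8.15, 8.07 and 8.27 in WT(hsf1) (2.83 ± 0.20). No array of one strain overlapped the other. SSA1 changed by 0.48 ± 0.06 and SSA2, the constitutive form, was not called (-0.07). HSP82, an Hsp90 gene, and HSP104, the disaggregase gene, rose by the same amount (0.67 ± 0.04 and 0.67 ± 0.06). The median without hsf1 was -0.23, and the interaction was called higher for 21 of the 23 genes and lower for 1, SSA2 (-0.17).

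Among other proteostasis genes, those of the proteasome moved together by small amounts and mitochondrial chaperones went both ways. Of 32 measured proteasome genes, 31 rose and 0 fell, all by less than 1 log2 unit (median 0.36, with PRE4 at 0.54 ± 0.05 and RPN13 at 0.55 ± 0.07). Without hsf1, 22 of these rose and 0 fell (median 0.19, or 0.23 without WT replicate 2), against 28.4% and 22.3% of all genes. RPN4, the transcription factor of proteasome genes, changed by 0.98 ± 0.07. Among 7 mitochondrial chaperone genes 3 rose and 4 fell, with MGE1, the exchange factor of mitochondrial Hsp70, at -1.06 ± 0.10.

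General stress genes had the highest median of the 39 lists. All 18 rose, 14 of them at least 2-fold, with a median of 1.75. The list averaged 10.27, 10.25 and 10.20 in hac1∆(hsf1), against 8.45, 8.50 and 8.73 in WT(hsf1). In the other strains it was 9.58, 9.68 and 9.64 in hac1∆, against 10.34, 10.42 and 10.35 in WT, so WT(hsf1) was the lowest of the 4 strains and hac1∆(hsf1) lay near WT. The median without hsf1 was -0.66, and the interaction was called higher for 17 of the 18 genes and lower for 1. CTT1, the cytosolic catalase gene, read 9.11, 9.19 and 8.93 in hac1∆(hsf1), against 7.10, 7.18 and 7.51 in WT(hsf1) (1.81 ± 0.12, 3.51-fold higher, limma adjusted p = 1.73e-08). HSP12, a membrane-stabilising small heat shock protein gene, changed by 0.90 ± 0.05. SIP18 and GRE1, hydrophilin genes of osmotic and desiccation stress, changed most (2.98 ± 0.12 and 2.88 ± 0.16).

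Reserve carbohydrate, antioxidant and respiratory genes were also higher in hac1∆(hsf1) than in WT(hsf1). In these lists WT(hsf1) had the lowest mean signal of the 4 strains. The medians without hsf1 were -0.24 for trehalose and glycogen, -0.045 for oxidative stress and -0.075 for respiration. Of 16 trehalose and glycogen genes, 15 rose (median 0.97), among them GPH1, glycogen phosphorylase (1.91 ± 0.10), PGM2, phosphoglucomutase (1.70 ± 0.09), and TPS1, trehalose phosphate synthase (1.30 ± 0.08). Of 27 oxidative stress genes, 20 rose and 2 fell (median 0.72), with OYE3, an NADPH oxidoreductase gene (2.38 ± 0.09), and TSA2, a peroxiredoxin gene (2.08 ± 0.07), at the top and GRX3, a glutaredoxin gene, at the bottom (-0.56 ± 0.08). Of 36 respiration genes, 33 rose and 1, the cytochrome c gene CYC1, fell (-0.88 ± 0.10), with SDH2 (1.12 ± 0.07) and SDH4 (1.04 ± 0.07) of succinate dehydrogenase leading. The respiration list averaged 10.03, 9.91 and 9.90 in hac1∆(hsf1), against 9.33, 9.37 and 9.38 in WT(hsf1). It averaged 10.18, 10.16 and 10.13 in hac1∆, against 10.35, 10.25 and 10.34 in WT, so hac1∆(hsf1) lay below both strains without hsf1. The glucose-repressed list had 13 of 15 genes higher and 0 lower, with HXT5, a hexose transporter gene, at 2.24 ± 0.11 and SUC2, invertase, at 1.47 ± 0.27. All 15 autophagy and vacuole genes rose, with ATG5 at 1.64 ± 0.14 and ATG1, the initiating kinase, at 1.06 ± 0.08.

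Sulfur assimilation genes were higher as a group. Of 26 measured genes, 25 rose and 0 fell, 18 of them at least 2-fold, with a median of 1.61. The list averaged 9.37, 9.38 and 9.31 in hac1∆(hsf1), against 7.90, 7.82 and 7.91 in WT(hsf1), and 9.72, 9.89 and 9.42 in hac1∆, against 9.43, 9.42 and 9.28 in WT, so WT(hsf1) again lay apart from the other 3 strains. MET2, homoserine acetyltransferase, read 8.95, 8.98 and 8.87 in hac1∆(hsf1), against 6.12, 6.0 and 6.13 in WT(hsf1) (2.85 ± 0.13, 7.2-fold higher, limma adjusted p = 6.53e-10), and the sulfate transporter gene SUL1 read 8.39, 8.53 and 8.49 in hac1∆(hsf1), against 5.70, 5.51 and 5.74 in WT(hsf1) (2.82 ± 0.14). MET17, which makes homocysteine, changed by 2.06 ± 0.11. Without hsf1, SUL1 was lower (-1.73), and MET2 changed by 0.33, which was not called without WT replicate 2 (limma adjusted p = 0.075). The interactions were 4.54 for SUL1 and 2.52 for MET2.

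Ribosomal protein genes had the lowest median of the lists. Of 127 measured, 126 fell, 121 of them at least 2-fold, and the median was -1.76. RPL15B alone rose (0.18 ± 0.07). The list averaged 9.13, 9.03 and 9.01 in hac1∆(hsf1), against 10.76, 10.82 and 10.78 in WT(hsf1), with 9.93, 9.83 and 9.82 in hac1∆, against 9.60, 9.44 and 9.73 in WT, so hac1∆(hsf1) was the lowest strain and WT(hsf1) the highest. RPS9A read 6.63, 6.44 and 6.60 in hac1∆(hsf1), against 9.45, 9.59 and 9.55 in WT(hsf1) (-2.97 ± 0.09, 7.84-fold lower, limma adjusted p = 3.22e-11). Many of these genes have a near-identical second copy, and the array signal of one copy may include the other. Without hsf1, 88 of the 127 rose and 1 fell (median 0.28), against 28.4% and 22.3% of all genes. When WT replicate 2 was left out, 73 rose and 3 fell (median 0.22). The interaction was called lower for 126 and higher for 0 (median -2.01, or -1.95 without WT replicate 2).

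The assembly machinery of the ribosome followed. Of 46 ribosome biogenesis genes, 44 fell, 30 of them at least 2-fold, and 0 rose (median -1.15). NSR1, a nucleolin-like protein gene, read 6.30, 6.31 and 6.16 in hac1∆(hsf1), against 8.63, 8.75 and 8.63 in WT(hsf1) (-2.41 ± 0.08, limma adjusted p = 5.59e-11), and NOP56 and NOP1, box C/D particle genes, changed by -2.21 ± 0.11 and -2.05 ± 0.05. Of 11 RNA polymerase I genes, 8 fell, with RPA190, the largest subunit, at -1.71 ± 0.11, and RPA14 rose (0.67 ± 0.08). Ribosomal RNA probe sets, 17 in number, averaged 9.04, 7.72 and 9.54 in hac1∆(hsf1), against 9.36, 9.16 and 9.38 in WT(hsf1), and the array at 7.72 was the lowest of the 12.

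**Figure D4:**
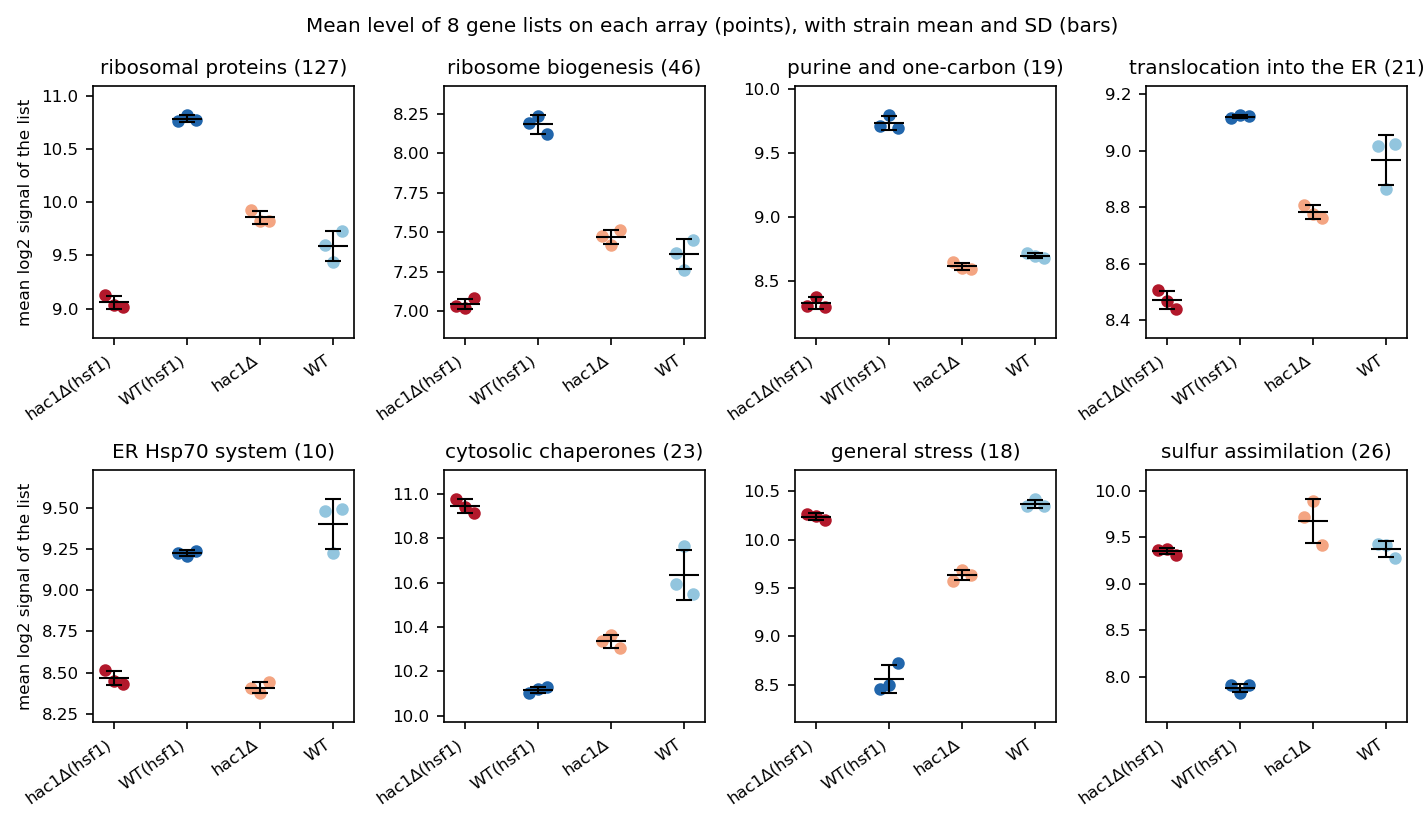
Mean log2 signal of 8 gene lists (vertical axis, a separate scale in each panel) in the 4 strains, with the number of genes in parentheses. Points are arrays and bars the mean and SD of 3 arrays; the ER Hsp70 list is low in both hac1∆ strains, the stress and sulfur lists are lowest in WT(hsf1), and ribosomal proteins are lowest in hac1∆(hsf1) and highest in WT(hsf1).

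Genes for nucleotide synthesis were lower as well. Of 19 purine and one-carbon genes, 16 fell, 13 of them at least 2-fold, and 1 rose (median -1.56). SHM2, cytosolic serine hydroxymethyltransferase, read 8.02, 8.08 and 7.95 in hac1∆(hsf1), against 10.77, 10.87 and 10.76 in WT(hsf1) (-2.78 ± 0.07, 6.88-fold lower, limma adjusted p = 1.57e-11). GCV1, of the glycine cleavage complex, and ADE17, of the last purine steps, changed by -2.51 ± 0.06 and -2.52 ± 0.10. The paralog ADE16 rose (0.24 ± 0.05). Of 12 pyrimidine genes, 9 fell and 2 rose (median -1.21), with URA7, CTP synthase, at -1.95 ± 0.08 and URA2, which opens the pathway, at -1.89 ± 0.09. URA3, described with the strain checks, is a member of this list.

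Glucose metabolism genes went both ways, often between paralogs. Of 21 glycolysis and fermentation genes, 8 rose and 10 fell, against 41.7% and 35.8% of all genes (median -0.03). HXK1, a hexokinase gene, rose (1.33 ± 0.09) and its paralog HXK2 fell (-0.71 ± 0.09), and among pyruvate decarboxylase genes PDC6 rose (2.32 ± 0.14) and PDC5 fell (-0.72 ± 0.09). Of 12 genes of the tricarboxylic acid cycle, 9 rose and 1, ACO1, fell (-0.43 ± 0.07), with MDH1, malate dehydrogenase, at 1.19 ± 0.05. Of 13 hexose transporter and sensor genes, 4 rose and 4 fell, against the same shares of all genes. HXT2 (-1.61 ± 0.07) and HXT1 (-1.12 ± 0.09) fell most, and 3 of the 13 were under background in both strains.

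Amino acid genes went both ways, with 19 of 51 higher and 26 lower, against 41.7% and 35.8% of all genes (median -0.22). HIS1 (-1.79 ± 0.06) and ARO4 (-1.64 ± 0.04), first steps of histidine and aromatic synthesis, fell most. LYS9 (1.91 ± 0.08) and LYS20 (1.68 ± 0.09) of lysine synthesis rose most, with changes of -1.67 and -1.68 without hsf1.

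Iron uptake genes were lower in part. Of 21 measured genes of the iron regulon, 13 fell, 7 of them at least 2-fold, and 4 rose (median -0.58). FET3, the multicopper oxidase of high-affinity uptake, read 6.76, 7.04 and 6.92 in hac1∆(hsf1), against 9.48, 9.48 and 9.59 in WT(hsf1) (-2.61 ± 0.09, 6.11-fold lower, limma adjusted p = 8.7e-11), and its permease partner FTR1 changed by -1.62 ± 0.08. HMX1, haem oxygenase, rose (0.79 ± 0.06). PHO84, the high-affinity phosphate transporter gene, was the member of the zinc and phosphate list with the largest increase (2.34 ± 0.24), while ZRT1 and ZRT2 were not called (-0.13 and -0.14).

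Cell wall genes were mostly higher, with 17 of 25 up and 5 down (median 0.34). Without hsf1, 18 of the 25 rose and 0 fell (median 0.43), against 28.4% and 22.3% of all genes. When WT replicate 2 was left out, 21 rose and 0 fell (median 0.41). PIR3, a wall glycoprotein gene, changed by 2.96 ± 0.14 and YPS3, a yapsin protease gene, by 1.43 ± 0.08, while UTR2 (-1.62 ± 0.08) and GAS1 (-0.91 ± 0.04), which remodel chitin and glucan, fell. Of 11 cyclin and cell cycle genes, 8 fell and 1, CLB4, rose (0.83 ± 0.12), with the mitotic cyclin gene CLB1 at -1.31 ± 0.07.

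Markers of a cells were detected in both strains. MFA1, an a-factor gene, read 9.78, 9.91 and 9.91 in hac1∆(hsf1), against 9.86, 10.21 and 10.21 in WT(hsf1). The alpha cell markers averaged 6.19, 6.28 and 6.28 in hac1∆(hsf1), against 6.33, 6.40 and 6.49 in WT(hsf1). Only 1 of them, the alpha-factor gene MF(ALPHA)2, was under background in both strains. Of 4 alpha cell markers, 1, SAG1, rose (0.24 ± 0.07) and 1, MF(ALPHA)1, fell (-0.72 ± 0.16). Of 7 a cell markers, 6 fell and 1 rose (median -0.99), with BAR1 at -1.25 ± 0.06 and STE2, the pheromone receptor gene, at -1.17 ± 0.06. HO, the mating-type switching endonuclease gene, read 6.18, 6.11 and 6.20 in hac1∆(hsf1), against 8.62, 8.72 and 8.63 in WT(hsf1) (-2.49 ± 0.07), another difference between the strains whose origin was not tested.

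Genes beside HAC1 also differed, by unequal amounts, where 77.5% of all genes were called. AGX1, the next gene on the chromosome, which encodes alanine:glyoxylate aminotransferase, read 10.41, 10.54 and 10.49 in hac1∆(hsf1), against 7.77, 7.71 and 7.89 in WT(hsf1) (2.69 ± 0.12, 6.45-fold higher, limma adjusted p = 6.99e-10). RIM15, the neighbour on the other side and a kinase gene of nutrient response, changed by 0.96 ± 0.07. Without hsf1, AGX1 changed by 0.86 (1.05 without WT replicate 2) and RIM15 by 0.03, which was not called. At 2 and 3 genes from HAC1, CAK1, CAF16 and MIL1 changed by 0.62, 0.14 and 0.22, and RPL22B, a ribosomal protein gene, by -2.69.

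Ranked by size alone, TKL2 had the largest called increase, followed by SIP18, PIR3 and GRE1. TKL2, a minor transketolase gene, read 9.97, 10.30 and 10.17 in hac1∆(hsf1), against 6.97, 7.08 and 7.39 in WT(hsf1) (3.0 ± 0.13, 8.01-fold higher, limma adjusted p = 3.8e-10). NQM1, a transaldolase paralog gene, GND2, a phosphogluconate dehydrogenase gene, and ALD3, an aldehyde dehydrogenase gene, changed by 2.87 ± 0.09, 2.65 ± 0.08 and 2.63 ± 0.13. ERR3, an enolase-related gene, ATO2, an ammonium export gene, and SPG4, a stationary-phase gene, changed by 2.71 ± 0.09, 2.60 ± 0.17 and 2.60 ± 0.12. With SIP18, PIR3, GRE1, MET2, SSA3, SUL1 and AGX1, described above, these are the 14 largest. The 14 largest decreases held HAC1, SHM2, FET3, ADE17, GCV1, HO and 8 ribosomal protein genes, RPS9A, RPL22B, RPS22B, RPS22A, RPS26B, RPS8B, RPL22A and RPL27B, which fell by at least 2.44 on the log2 scale. Of the genes at least 2-fold higher, 271 of 351 were in no list, and of those at least 2-fold lower, 192 of 415.

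ULI1, YOR387C and VEL1 are genes of little known function, of which ULI1 is named for its induction by the unfolded protein response. ULI1 read 6.41, 6.56 and 6.53 in hac1∆(hsf1), against 7.90, 7.90 and 8.31 in WT(hsf1) (-1.54 ± 0.11), and YOR387C read 7.98, 8.33 and 8.40 in hac1∆(hsf1), against 10.16, 10.71 and 11.06 in WT(hsf1) (-2.41 ± 0.18). Without hsf1 their changes were -4.29 and -4.04, and the interactions were 2.75 and 1.64 (limma adjusted p = 5.36e-09 and 7.56e-05). VEL1 also fell, with 6.13, 5.99 and 5.99 in hac1∆(hsf1), against 7.88, 8.35 and 8.76 in WT(hsf1) (-2.29 ± 0.16), and its interaction had the opposite sign, -1.79 (limma adjusted p = 1.1e-05; -1.74 without WT replicate 2). VEL1 and YOR387C are similar in sequence, and the signal of one may include the other.

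Over all genes, the interaction was called for 3795 genes, of which 1945 had a higher change with hsf1 (35.7%) and 1850 a lower one (34.0%). Without hsf1, 1550 genes rose (28.4%) and 1214 fell (22.3%) with the loss of HAC1. Genes called lower in both pairs numbered 437, which was 22.4% of those lower with hsf1 and 36.0% of those lower without it, and 596 were called higher in both (26.2% and 38.5%). Opposite calls were also common, with 645 genes lower with hsf1 and higher without it and 562 the reverse. The 6 largest interactions were SIP18 (5.05), SHH3, a succinate dehydrogenase homologue gene (4.81), GRE1 (4.58), SUL1 (4.54), SSA3 (4.35) and SPG4 (4.28), and they were 5.12, 4.82, 4.63, 4.55, 4.03 and 4.23 without WT replicate 2. At the other end stood RPS9A (-3.15), RPS22B (-3.06), RPL17B (-3.03), RPL22B (-2.97), ASC1 (-2.94), a scaffold of the small subunit, and RPS8B (-2.85).

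Genes lower by at least 2-fold numbered 415 with hsf1 and 89 without it, and 20 were shared (4.82% and 22.5%), where 7.62% of all genes were that much lower with hsf1. Beside HAC1 they were the ER and secretory genes MPD1, EUG1, SIL1, LHS1, ERJ5, DER1, SEC62, MCD4, GWT1, SEC53 and DPM1, the one-carbon genes SHM2 and GCV1, the iron transporter gene FET4, the repressor gene NRG2, the nucleosidase gene URH1, and ULI1, YOR387C and IRC4. SEC53 makes GDP-mannose precursors and DPM1 makes dolichol phosphate mannose for glycosylation. All 20 also kept a change of at least 2-fold in the pair without hsf1 when WT replicate 2 was left out, where 98 genes were that low and 24 were shared. Genes at least 2-fold higher in both pairs were NCA3 (2.42 ± 0.27), MHT1, YPS3, AFB1 and YPL088W, 5 of 351 with hsf1 and of 12 without it. Without WT replicate 2 there were 20 such genes in the pair without hsf1, of which 9 were shared.

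**Figure D5:**
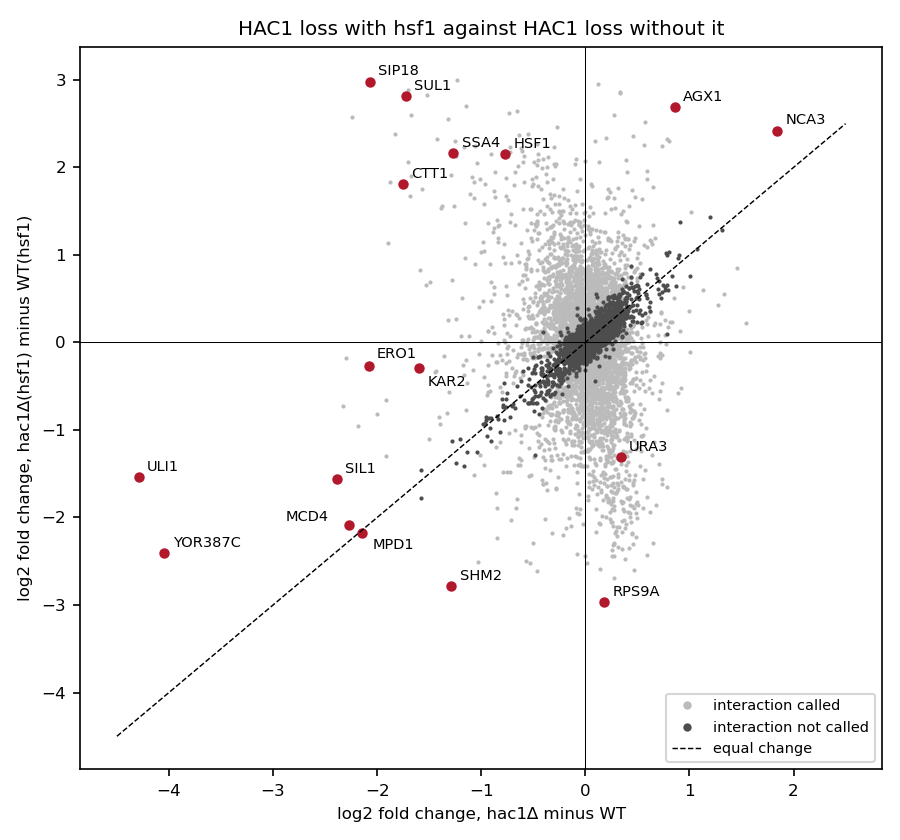
Change in log2 signal of each gene except HAC1 in hac1∆(hsf1) minus WT(hsf1) (vertical axis) against hac1∆ minus WT (horizontal axis). Light grey genes have a called interaction (3795 in all) and dark grey ones do not, and the dashed line marks equal change; MPD1 and MCD4 lie near it, KAR2 and ERO1 above it, and RPS9A below it.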

How the data were processed

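Total RNA was labelled from 12 cultures and hybridised to Affymetrix yeast arrays, 1 array per culture. The deposited values are log2 signals per probe set, a scale read from the values; the authors used PLIER, per the submitters' processing notes, and no source used here gives its version, background correction or normalization between arrays. Of 10928 probe sets, 5498 were for genes in the RefSeq table of Saccharomyces cerevisiae. They gave 5449 genes, with the highest mean kept where a gene had several (47 genes), and 5236 of these exceeded background in their mean over the 12 arrays. Signals ran between 4.84 and 12.75, array medians between 5.995 and 6.065, and 0 pairs of arrays were identical; the number of arrays limits precision.

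limma 3.58.1 in R 4.3.3 fitted 1 mean per strain to the 12 arrays (8 residual degrees of freedom, 4.33 prior) and was tested on simulated data. Alternatives were the 6 compared arrays alone, leaving out each array, 2 further normalizations, a replicate block, array weights, an intensity trend, genes above background, and the mean of all probe sets. The genes and 39 lists were chosen with earlier results of these data known. Named genes were 22 fixed ones, the 14 largest called changes each way, the first 2 and largest 2 changes each way of each list, and the 6 largest interactions each way. All members of the ER Hsp70 and disulfide lists, the neighbours of HAC1, and the genes changed at least 2-fold in both pairs were added after their values were seen. Promoter sequences were not analysed here.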

Additional observations from a re-analysis of the deposited data

Results flagged for a closer look

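The limma interaction, with Benjamini-Hochberg adjustment, was called for 1945 genes with a higher change and 1850 with a lower change in the pair with hsf1. Among ER genes the change of hac1∆(hsf1) minus WT(hsf1), less that of hac1∆ minus WT, was 1.31 for KAR2, 1.81 for ERO1, 0.82 for SIL1, 0.40 for DER1 and -0.29 for IRE1. INO1 had a difference of 0.74, ULI1 of 2.75, YOR387C of 1.64 and VEL1 of -1.79.

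For heat shock and stress genes the interactions were 2.92 for HSF1, 3.43 for SSA4, 4.35 for SSA3 and 0.68 for SSA1. They were 0.85 for HSP82, 1.02 for HSP104, 1.25 for HSP12 and 3.56 for CTT1. They were 5.05 for SIP18, 4.81 for SHH3, 4.58 for GRE1, 4.54 for SUL1 and 4.28 for SPG4. In the opposite direction stood RPS9A (-3.15), RPS22B (-3.06), RPL17B (-3.03), RPL22B (-2.97), ASC1 (-2.94), RPS8B (-2.85) and URA3 (-1.65). All of these directions held without WT replicate 2.

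Of 47 reporter control probe sets, which are outside the gene measurements, 2 differed by over 1 log2 unit between the compared strains. The first averaged 11.20 in hac1∆(hsf1), against 5.21 in WT(hsf1), and read 10.47 in WT replicate 2, where the other WT arrays read 5.16. The second averaged 7.78 in hac1∆(hsf1), against 5.73 in WT(hsf1), and read 6.56 in WT replicate 2, where the other WT arrays read 6.58 and 7.16.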

How the results depend on the processing

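Counts of called genes in each comparison, and of genes changed at least 2-fold with hsf1, stayed within 1.5 times of the reported ones under all 20 alternative settings. Genes at least 2-fold higher without hsf1 did not: they numbered 20 without WT replicate 2, of which 9 were shared with the pair carrying hsf1, against 12 and 5. Leaving out 1 array gave 2130 to 2305 genes higher and 1855 to 1974 lower in hac1∆(hsf1), 342 to 368 and 413 to 420 at 2-fold or more, and 1839 to 1968 and 1762 to 1858 in the interaction. Other settings gave 2112 to 2321 higher and 1915 to 2099 lower. Same-numbered replicates of the compared strains correlated at -0.18, 0.22 and 0.07 in their deviations, and differently numbered ones at -0.30 to 0.29. Deviations from means of 3 arrays cannot decide whether the numbers pair cultures. With the replicate block 2281 genes were higher and 1966 lower. The interactions of PDI1 and SCJ1 lie near 0 and changed sign: leaving out 1 array gave -0.087 to 0.013 for PDI1 (0.013 without WT replicate 2, 0.007 without hac1∆(hsf1) replicate 3) and -0.099 to 0.043 for SCJ1 (0.043 without WT replicate 2, 0.033 without hac1∆ replicate 3), and array weights gave 0.007 and 0.044; the cause was not tested. The hexose transporter median turned to -0.050 when genes under background were left out, which removes members. ERO1 changed by -0.39 without hac1∆(hsf1) replicate 1 and by -0.17 after quantile normalization. IRE1 was called under 6 settings. Equal array medians moved the median of all genes to 0.00 and calls higher to 50.2% of all calls, against 53.8%. The HSF1 change without hsf1 lost its call in most fits that left out 1 array. The depth of an array is its signal over background, and changes of genes under 5.49 in both strains were not interpretable.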

Other observations

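Further gene families, chosen by symbol after values were seen, are given as counts beside 41.7% of all genes called higher and 35.8% lower in hac1∆(hsf1). Of 66 genes with symbols of mitochondrial ribosomal proteins, 62 fell and 2 rose, with a median of -0.83 and a range between -1.48 (MRPL32) and 0.83 (MRP8). A symbol alone does not show that a gene such as MRP8 encodes a ribosomal protein. The mitochondrial import channels held 19 of 23 genes lower and 1 higher (median -0.60), with TOM20, a receptor of the outer membrane, at -1.18. These stood beside the respiration list, where 33 of 36 genes rose. All 18 cytosolic tRNA synthetase genes fell (median -0.97), with SES1, for serine, at -1.61, and so did 24 of 28 translation factor genes, with TEF4, an elongation factor subunit, at -1.65. Histone genes were lower for 6 of 9 (median -0.31) and nucleoporin genes for 16 of 20 (median -0.28).

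Of 5 aryl-alcohol dehydrogenase genes, 4 rose (median 1.67), with AAD6 at 2.23, and of 25 peroxin genes 16 rose and 3 fell (median 0.26), with PEX2 at 1.19. Of 40 vacuolar protein sorting genes, 28 rose and 5 fell (median 0.25). The seripauperin genes went both ways, with 7 of 13 higher and 5 lower (median 0.14), and their close sequences may share signal. Of 28 meiosis and sporulation genes, 13 rose and 5 fell (median 0.06), with SPS2 at 1.79.

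Some paralog pairs moved apart, as with TKL2 (3.0) and TKL1 (-0.35), GND2 (2.65) and GND1 (-0.46), SHM2 (-2.78) and SHM1 (0.03, not called), and URA10 (0.66) and URA5 (-1.11). Others moved together, as with RPS22A (-2.59) and RPS22B (-2.60), SSA3 (2.83) and SSA4 (2.16), and ERP1 (-1.48) and ERP2 (-1.72). These pairs were chosen after their values were seen, and pairs were not counted.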
